A study of Mus musculus with 9 samples.

Results

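Transcript levels of 10 genes of the Notch pathway were followed in mouse glioma lines and neural stem cell cultures. The genes are the receptors Notch1, Notch2 and Notch3, the ligands Dll1, Dll3 and Jag1, the receptor modifier Lfng, and the target genes Hes1, Hes5 and Hey1. They were chosen by name, all 10 were found among the 20690 named genes of the deposited log2 table, and each has a value on all 9 Affymetrix Mouse Gene 1.0 ST arrays. The arrays form 3 groups of 3. The Erbb2 lines are gliomas made by electroporation (EP) of EGFP-P2A-Erbb2 V664E, a mutant receptor tyrosine kinase, and the Hras lines are gliomas made with EGFP-Hras G12V, a mutant GTPase. The third group, NSC, holds neural stem and progenitor cells that received reporters alone. TagBFPnls-V5 and pBase went into all 9. The other NSC reporter was Membrane EGFP in NSC 1 and Histone 3.3-EGFP in NSC 2, and NSC 3 had none. NSC 3 came from C57/Bl6 Dnm2 floxed mice and the other 8 arrays from CD1 mice. The labels give no age and name no individual animals, so the p-values reflect variation among these cultures, part of which may be technical. All cells were grown from the subventricular zone in serum-free medium with EGF and FGF and then sorted, so each array reads a sorted culture and not tumour tissue. The protocol gives a sort for strong GFP. NSC 3 is labelled EGFP purified in one field and BFP sorted and without Cre in another, and the constructs listed for it hold no EGFP, so its sort may have differed from that of the other 8.

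Notch receptors are cleaved when a ligand on a neighbouring cell binds them, and the freed intracellular part joins the DNA-binding protein RBPJ and Mastermind coactivators to switch on genes of the Hes and Hey families. The Hes and Hey proteins repress proneural factors, and in the subventricular zone the pathway is known for holding stem cells in an undifferentiated state. Lfng encodes Lunatic fringe, a Golgi glycosyltransferase that adds sugars to Notch receptors, which favours signalling by Delta ligands over that by Jagged ligands.

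Lfng differed most from NSC in both kinds of glioma line, and was the only 1 of the 10 genes whose tumour arrays all lay outside the NSC range. Groups that lie apart with the tumour lines lower were found for 2.58% of all genes in Hras lines against NSC, 12.6% in Erbb2 lines against NSC and 1.28% for all 6 tumour lines against NSC. Its mean was 6.20-fold lower in Hras lines and 8.82-fold lower in Erbb2 lines. Jag1 had higher means in both kinds of line, and Notch3 and Dll1 lower means, with changes of 1.02 to 1.46 log2 units in size and arrays that overlapped NSC. The targets Hes1 and Hes5 differed from NSC by at most 0.55 log2 units in the values as deposited. After quantile normalization Hes5 differed by -0.88 in Hras lines. The third target, Hey1, differed by -0.57 in Hras lines and by -1.05 in Erbb2 lines, the latter becoming 0.19 without Erbb2 3. In limma's test over all genes 0 of the 10 genes passed an adjusted p under 0.05 in any comparison. The share of all genes that passed was 0% for Hras lines against NSC, 0.00967% for Erbb2 lines against NSC, 0% for Hras against Erbb2 lines and 0.353% for the 2 tumour groups averaged against NSC, so a count of 0 among 10 genes is near the background. At an unadjusted p under 0.05, 2 of the 10 passed in Hras lines against NSC, where 12% of all genes did, 4 in Erbb2 lines against NSC, where 9.23% did, 0 between the tumour groups, where 12.7% did, and 4 with the tumour groups averaged, where 10% did. Both comparisons with NSC use the same 3 NSC arrays.

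**Figure D1:**
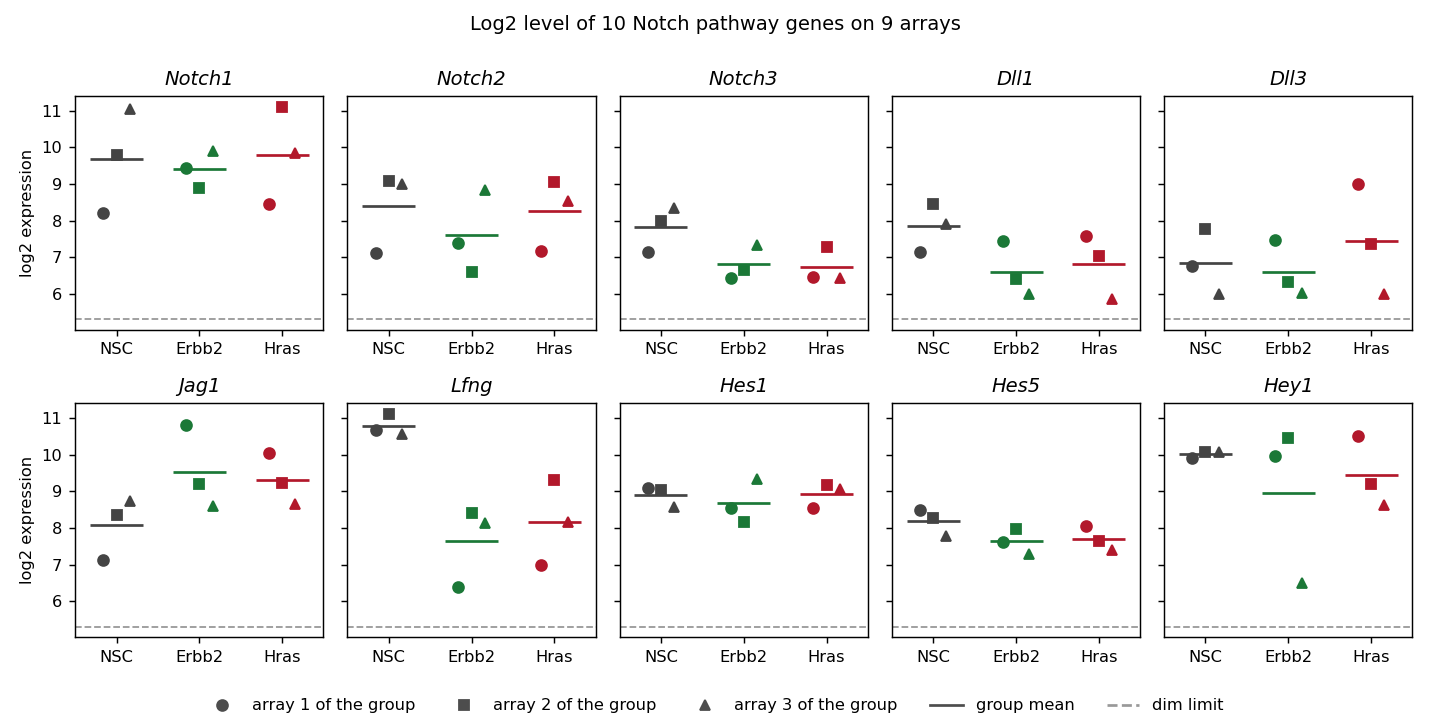
Log2 expression of each Notch pathway gene (vertical axis) in the NSC, Erbb2 and Hras groups, with a point for each array, shaped by its number, a bar at the group mean and a dashed line at the dim limit of 5.31. Lfng separates NSC (10.56 to 11.12) from the tumour lines (6.39 to 9.31), and Hey1 is low in Erbb2 3 (6.49).

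Values are log2 levels as deposited, and no level is compared between genes, since each probe set has its own response. No value of the 10 genes lay below the dim limit of 5.31, the 25th percentile of all values in the table. Array scales differed, with medians over genes of 6.56 to 6.81 in NSC, 6.56 to 6.73 in Erbb2 and 6.98 to 7.19 in Hras arrays. The log2 change of the median gene was 0.16 in Hras lines against NSC, -0.14 in Erbb2 lines against NSC and 0.29 between Hras and Erbb2 lines. After each array was centred on its own median these became -0.23, -0.11 and -0.13, and after quantile normalization -0.026, -0.028 and -0.0074. NSC 1 stood apart from the other arrays, with the lowest of limma's array weights (0.288, the others 0.762 to 1.67).

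Among the receptors, Notch1 had log2 levels of 8.21, 9.78 and 11.03 in NSC 1, 2 and 3, of 9.43, 8.89 and 9.89 in Erbb2 1, 2 and 3, and of 8.45, 11.11 and 9.83 in Hras 1, 2 and 3. The spread within NSC and within the Hras lines was wider than any difference between group means, and all 3 groups overlapped. Its difference from NSC was 0.12 in Hras lines (SE 0.78, 95% interval -1.65 to 1.89, limma adjusted p = 0.972) and -0.27 in Erbb2 lines (SE 0.78, limma adjusted p = 0.896). The first of these changed sign with the scaling, to -0.18 after quantile normalization and -0.27 with centred arrays, and was -0.61 without NSC 1 and -0.53 without Hras 2.

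Notch2 had levels of 7.12, 9.09 and 8.99 in NSC 1, 2 and 3, of 7.39, 6.59 and 8.85 in Erbb2 1, 2 and 3, and of 7.17, 9.05 and 8.53 in Hras 1, 2 and 3. NSC 1, Erbb2 1, Erbb2 2 and Hras 1 lay at 6.59 to 7.39 and the other 5 arrays at 8.53 to 9.09, so each group held both low and high arrays. The differences from NSC were -0.15 in Hras lines (SE 0.73, limma adjusted p = 0.962) and -0.79 in Erbb2 lines (SE 0.73, limma adjusted p = 0.68). Single arrays weighed on both. The second was -0.28 without Erbb2 2, -0.45 without NSC 2, -0.50 without NSC 3, -1.43 without NSC 1 and -1.41 without Erbb2 3, and the first turned positive without NSC 2, NSC 3 or Hras 1.

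Notch3 had levels of 7.16, 7.99 and 8.33 in NSC 1, 2 and 3, of 6.44, 6.64 and 7.33 in Erbb2 1, 2 and 3, and of 6.45, 7.28 and 6.44 in Hras 1, 2 and 3. The highest line of each tumour group lay above NSC 1 and below NSC 2 and NSC 3, so the groups overlapped through NSC 1. The mean was lower than in NSC by 2.15-fold in Hras lines (log2 change -1.10, SE 0.38, 95% interval -1.97 to -0.24, limma adjusted p = 0.304) and by 2.03-fold in Erbb2 lines (log2 change -1.02, SE 0.38, limma adjusted p = 0.476). The alternatives that can move a change are quantile normalization, centring, array weights and removal of an array of the groups compared. The direction for Notch3 was the same in all of these for each comparison with NSC. The changes were -1.50 to -0.85 in Hras lines and -1.36 to -0.77 in Erbb2 lines.

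The receptor modifier Lfng had levels of 10.69, 11.12 and 10.56 in NSC 1, 2 and 3, of 6.39, 8.40 and 8.15 in Erbb2 1, 2 and 3, and of 6.998, 9.31 and 8.16 in Hras 1, 2 and 3. Every tumour array lay below every NSC array, with a gap from 9.31 in Hras 2 to 10.56 in NSC 3, and NSC 3, of the other strain and reporter, was close to NSC 1 and NSC 2. Erbb2 1 and Hras 1 had the lowest levels of the 9.

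The mean level of Lfng was 10.79 ± 0.29 (SD, n = 3) in NSC, 7.65 ± 1.10 in the 3 Erbb2 lines and 8.16 ± 1.16 in the 3 Hras lines. The log2 change was -2.63 in Hras lines (SE 0.64, 95% interval -4.08 to -1.18, limma adjusted p = 0.164) and -3.14 in Erbb2 lines (SE 0.64, 95% interval -4.59 to -1.69, limma adjusted p = 0.153). With the tumour groups averaged it was -2.89 (SE 0.56, 95% interval -4.14 to -1.63, limma adjusted p = 0.0929). Without any single array the change was -3.21 to -2.05 in Hras lines and -3.52 to -2.51 in Erbb2 lines.

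Because these are sorted cultures, fewer cells that express a gene and less RNA of it per cell cannot be told apart. Astrocyte markers (Gfap, Aqp4, Aldh1l1, Slc1a2, S100b, Gja1) had a mean log2 level of 8.004 to 9.33 in NSC, 6.52 to 8.14 in Erbb2 and 6.56 to 7.41 in Hras arrays. It was lowest in Erbb2 1 and Hras 1, the arrays with the lowest Lfng, while Erbb2 2 lay within the NSC range. The list was not uniform, with a change of -3.79 for Aldh1l1 and 2.46 for S100b in Erbb2 lines against NSC (limma adjusted p = 0.275 and 0.427). Of these 6 markers 5 lay above the dim limit on all NSC arrays and 3 on all arrays of each tumour group, and 0 of 6 passed the test in any comparison. Their part in the result for Lfng was not tested.

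Lfng and Hes5 have promoter windows that hold the letters of an RBPJ site, and both are shown because one is the gene with the greatest difference and the other a target gene read out below. RefSeq (GRCm38.p6) gives the 250 bases before the gene start for 8 of the 10 genes, in 9 windows, and Hes1 and Hey1 are named only. The motif shown is TGGGAA, searched on both strands, and capitals mark each match to it or its reverse complement. Letters of a Hes N-box, an E-box and an Ets site were searched as well. They are not marked and are not counted as matches here. The windows are chr5:140607091-140607340 for Lfng and chr4:154960673-154960922 for Hes5, both on the plus strand, written 5′ to 3′.
Lfng: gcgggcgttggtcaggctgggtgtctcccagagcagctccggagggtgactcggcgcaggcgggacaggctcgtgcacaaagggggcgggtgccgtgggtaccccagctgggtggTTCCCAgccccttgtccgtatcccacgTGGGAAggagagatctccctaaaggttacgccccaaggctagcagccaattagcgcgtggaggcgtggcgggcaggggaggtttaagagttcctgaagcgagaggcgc
Hes5: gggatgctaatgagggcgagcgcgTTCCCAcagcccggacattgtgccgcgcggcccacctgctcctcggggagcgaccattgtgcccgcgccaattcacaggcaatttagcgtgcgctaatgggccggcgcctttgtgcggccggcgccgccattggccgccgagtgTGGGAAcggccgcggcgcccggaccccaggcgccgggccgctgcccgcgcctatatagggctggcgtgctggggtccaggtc
Each window holds 2 matches, whose first bases lie 135 and 108 bases before the start in Lfng and 226 and 82 bases before it in Hes5. Of 32851 promoter windows of the same length in the table, 21.6% hold at least 1 match, and the windows of Notch1, Notch2, Notch3, Dll1, Dll3 and Jag1 hold none. A match describes letters and is not evidence of binding in these cells.

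Among the ligands, Jag1 had levels of 7.12, 8.36 and 8.74 in NSC 1, 2 and 3, of 10.80, 9.20 and 8.61 in Erbb2 1, 2 and 3, and of 10.06, 9.24 and 8.66 in Hras 1, 2 and 3. The third line of each tumour group lay between NSC 2 and NSC 3, and the other 4 tumour lines lay above all NSC arrays. The mean was 2.75-fold higher in Erbb2 lines (log2 change 1.46, SE 0.63, 95% interval 0.046 to 2.88, limma adjusted p = 0.526) and 2.37-fold higher in Hras lines (log2 change 1.25, SE 0.63, 95% interval -0.17 to 2.66, limma adjusted p = 0.49). Single arrays weighed on the size. Without NSC 1 the changes were 0.99 and 0.77, and without Erbb2 1 the first was 0.83. The direction was kept in every alternative that can move the change.

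Dll1, a ligand that activates Notch on the next cell, had levels of 7.15, 8.46 and 7.92 in NSC 1, 2 and 3, of 7.43, 6.39 and 6.00 in Erbb2 1, 2 and 3, and of 7.58, 7.04 and 5.85 in Hras 1, 2 and 3. NSC 2 and NSC 3 were the highest of the 9 arrays, NSC 1 lay within the range of the tumour lines, and the third line of each tumour group was the lowest of its group. The log2 change was -1.02 in Hras lines (SE 0.53, limma adjusted p = 0.509) and -1.23 in Erbb2 lines (SE 0.53, limma adjusted p = 0.53). It kept its direction in every alternative that can move it, and without Hras 3 the first was -0.54.

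Dll3, a divergent Delta family member known as an inhibitor of signalling within the cell that makes it, had levels of 6.75, 7.77 and 5.99 in NSC 1, 2 and 3, of 7.48, 6.34 and 6.01 in Erbb2 1, 2 and 3, and of 8.99, 7.36 and 5.98 in Hras 1, 2 and 3. Hras 1 was the highest, and each group held an array near 6. The change from NSC was 0.61 in Hras lines (SE 0.75, limma adjusted p = 0.825), or -0.16 without Hras 1, and -0.23 in Erbb2 lines (SE 0.75, limma adjusted p = 0.91).

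Of the target genes, Hes1, a transcriptional repressor, had levels of 9.11, 9.04 and 8.57 in NSC 1, 2 and 3, of 8.56, 8.17 and 9.35 in Erbb2 1, 2 and 3, and of 8.54, 9.18 and 9.06 in Hras 1, 2 and 3. All 3 groups overlapped. The change from NSC was 0.020 in Hras lines (SE 0.33, 95% interval -0.73 to 0.77, limma adjusted p = 0.99), which became -0.28 after quantile normalization and -0.37 with centred arrays, and -0.21 in Erbb2 lines (SE 0.33, 95% interval -0.96 to 0.54, limma adjusted p = 0.798).

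Hes5, the related repressor whose promoter is shown above, had levels of 8.48, 8.28 and 7.80 in NSC 1, 2 and 3, of 7.63, 7.98 and 7.31 in Erbb2 1, 2 and 3, and of 8.07, 7.65 and 7.40 in Hras 1, 2 and 3. NSC 1 and NSC 2 were the highest of the 9 arrays, and NSC 3 lay within the range of both tumour groups. The change was -0.48 in Hras lines (SE 0.28, limma adjusted p = 0.557) and -0.55 in Erbb2 lines (SE 0.28, limma adjusted p = 0.56). Its direction was kept in every alternative that can move it. The first was -0.88 after quantile normalization and -0.87 with centred arrays.

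Hey1, a repressor of the Hes-related family, had levels of 9.92, 10.07 and 10.07 in NSC 1, 2 and 3, of 9.97, 10.45 and 6.49 in Erbb2 1, 2 and 3, and of 10.50, 9.21 and 8.64 in Hras 1, 2 and 3. NSC arrays lay within 0.15 of each other, while the tumour lines spread over 4.01 log2 units. The change was -1.05 in Erbb2 lines (SE 0.92, limma adjusted p = 0.663), which became 0.19 without Erbb2 3, and -0.57 in Hras lines (SE 0.92, limma adjusted p = 0.877), which became -0.16 without Hras 3 and -1.10 without Hras 1.

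**Figure D2:**
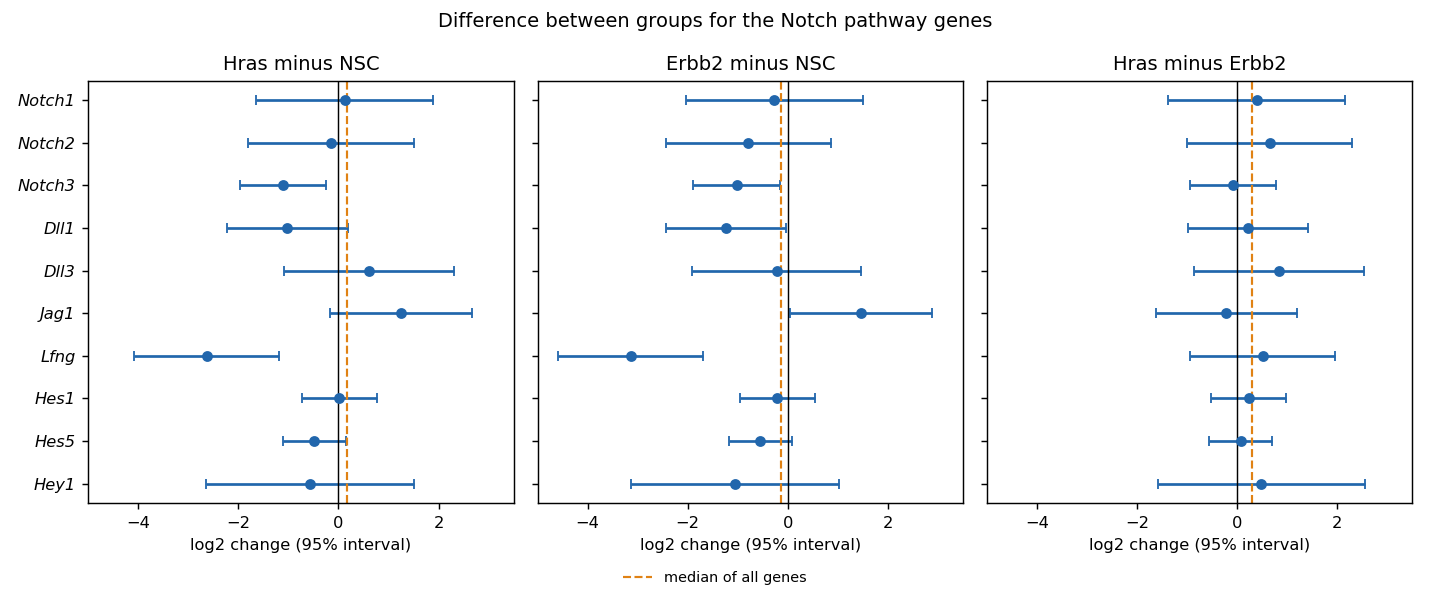
Log2 change of each Notch pathway gene (horizontal axis, point with its 95% interval from limma) for Hras minus NSC, Erbb2 minus NSC and Hras minus Erbb2, with the median change of all genes as a dashed line. The intervals of Lfng and Notch3 lie below 0 in both comparisons with NSC. In Erbb2 minus NSC that of Dll1 also lies below 0 and that of Jag1 above it. Every interval of Hras minus Erbb2 includes 0.

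Of the list, 6 of the 10 genes had a negative change in Hras lines against NSC, where 31.5% of all genes did, and the median over the 10 was -0.31 beside 0.16 over all genes. That median became -0.61 without NSC 1, -0.17 without NSC 2, -0.49 without Hras 2, -0.64 after quantile normalization and -0.71 with centred arrays. In Erbb2 lines 9 of 10 were negative, where 63.3% of all genes were, and the median over the 10 was -0.67 beside -0.14, or -1.05 without NSC 1. Jag1 was the exception.

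Hras and Erbb2 lines were compared directly to see whether the oncogenes differ in Notch gene levels. Among the 10 genes 0 passed the test, 0 had groups that lay apart, where 27.7% of all genes did, and the median change was 0.31 beside 0.29 for all genes. With centred arrays it turned to -0.11, and it was 0.059 without Hras 1, 0.10 without Hras 2 and 0.14 without Erbb2 2. The widest difference was that of Dll3, 0.84 (SE 0.75, 95% interval -0.86 to 2.53, limma adjusted p = 0.579), followed by Notch2 with 0.64 (95% interval -1.01 to 2.30). Both rested on single lines and on the scaling. Dll3 was 0.063 without Hras 1, 1.57 without Hras 3 and 0.42 with centred arrays, and Notch2 was 0.14 without Erbb2 2, 0.24 without Hras 2, 1.26 without Erbb2 3, 1.19 without Hras 1 and 0.23 with centred arrays. The interval for Lfng was -0.94 to 1.96 and that for Jag1 -1.63 to 1.2004. Hes5 and Hes1 had the narrowest intervals, -0.56 to 0.70 and -0.52 to 0.98. These intervals do not show that the lines are alike. The sign of the difference also turned with the scaling for Notch1, Dll1, Hes1 and Hes5.

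In each of the 10 genes the lines within each tumour group spanned a wider range than the difference between the 2 tumour group means. The SD over 9 arrays was 1.67 for Lfng and 1.27 for Hey1, above that of 99.0% and 96.8% of all genes, and 0.392 and 0.393 for Hes1 and Hes5, above that of 47.9% and 48.1%. The median was 1.01 over the 10 genes and 0.405 over all genes. Erbb2 1 and Hras 1 had the 2 lowest levels of Lfng and the 2 highest of Jag1, and in each tumour group the first line had the highest Dll1 and Dll3. For Hey1 the highest levels were in Hras 1 (10.50) and Erbb2 2 (10.45). Over all genes, deviations from group means in Hras 1 correlated at 0.43 with Erbb2 2 and 0.34 with Erbb2 1. Erbb2 3 and Hras 3 had the lowest Jag1, Dll1, Dll3, Hes5 and Hey1 of their group. Erbb2 and Hras lines of like title number also share the leading number of their deposited column names. Its meaning is not given and its part was not tested.

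Oligodendrocyte lineage markers (Pdgfra, Cspg4, Sox10, Gpr17, Mbp) varied between the same lines. Their mean log2 level was 10.11, 9.24 and 6.79 in Erbb2 1, 2 and 3 and 9.45, 8.29 and 7.23 in Hras 1, 2 and 3, against 6.21 to 6.33 in NSC. Of the 5, 4 lay above the dim limit on all NSC arrays, 4 on all Erbb2 arrays and 5 on all Hras arrays, and 1 of 5 passed the test, Pdgfra with the tumour groups averaged (change 4.92, limma adjusted p = 0.0246). In that comparison 0.353% of all genes passed, and 0 genes did without NSC 2. Against NSC separately Pdgfra did not pass, with limma adjusted p = 0.071 in Hras and 0.0599 in Erbb2 lines. The part of these 5 markers in the differences of Jag1, Dll3 and Hey1 between lines was not tested. Neural stem cell markers (Sox2, Nes, Pax6, Slc1a3, Vim, Msi1, Prom1, Sox9) had a mean of 9.34 to 10.09 in NSC, 8.93 to 9.37 in Erbb2 and 8.9955 to 9.84 in Hras arrays, and 7 of 8 lay above the dim limit on all 9, the other being Prom1. Against NSC, 4 changes were positive and 4 negative in Hras lines, and all 8 were negative in Erbb2 lines, where 63.3% of all genes were. Slc1a3 changed by -1.87 in Hras and -1.51 in Erbb2 lines, and Pax6 by -1.24 and -1.6. Both had their 2 lowest levels in Erbb2 1 and Hras 1, as Lfng did. Of the 8 markers 0 passed the adjusted test in any comparison, and their part in the result for Lfng was not tested. Neuronal markers (Dcx, Tubb3, Rbfox3, Stmn2, Syt1, Snap25) had means of 6.08 to 6.17 in NSC, 5.38 to 7.18 in Erbb2 and 6.63 to 7.21 in Hras arrays. The list means of the Hras arrays lay above NSC, but the list was not uniform, with 4 positive and 2 negative changes. At an unadjusted limma p under 0.05, 2 of the 6 passed in Hras lines against NSC, where 12% of all genes did. These were Tubb3, which was higher (change 1.25), and Snap25, which was lower (change -1.06). In the adjusted test 0 of 6 passed in any comparison. Endothelial (5.06 to 6.08), microglial (4.98 to 5.71) and mural or fibroblast markers (5.06 to 5.86) were near the dim limit of 5.31, with 1 of 5, 1 of 5 and 2 of 6 above it on all 9 arrays, and Aif1 and Lum below it on all 9. Notch3 is also a known gene of mural cells, and the mean of the mural list was 5.15 to 5.61 in NSC, 5.06 to 5.47 in Erbb2 and 5.53 to 5.86 in Hras arrays.

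**Figure D3:**
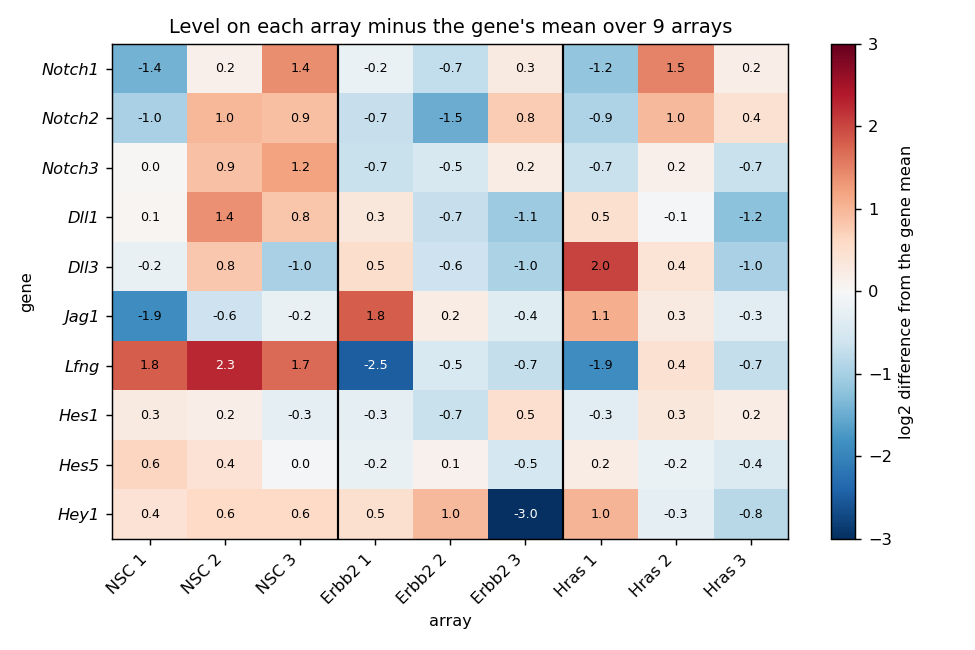
Log2 level of each Notch pathway gene (rows) on each array (columns) minus the gene's mean over the 9 arrays, on a colour scale from blue (lower) to red (higher), with the difference printed in each cell. Lfng is red in all 3 NSC arrays and, within its row, lowest in Erbb2 1 and Hras 1, which have the highest Jag1.

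Genes with the most similar pattern were sought for the 6 members whose SD over the arrays was above 1, by the root mean square difference between values centred on each gene's own mean over the 9 arrays, which share libraries and scale. Closest to Lfng were the protease inhibitor A2m (0.50 log2 units), the peptide hormone Apln (0.57) and the BMP receptor Bmpr1b (0.60), against a spread of Lfng about its own mean of 1.57. Closest to Jag1 were the kinase Lmtk2 (0.25), the Dickkopf receptor Kremen1 (0.29) and the actin regulator Raph1 (0.31), where the spread of Jag1 was 0.99. For Dll3 they were the GABA receptor subunit Gabbr2 (0.33), the synapse organiser Cbln1 (0.39) and the ubiquitin ligase subunit Fbxo32 (0.44), with a spread of 0.97.

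For Notch1 the closest were the kinase Wnk1 (0.26), the histone methyltransferase Kmt2a (0.26) and the acetyltransferase Crebbp (0.32), with a spread of 0.96, and all 3 were lowest in NSC 1, as Notch1 was. For Notch2 they were the Rac activator Dock4 (0.28), the transcription factor Rreb1 (0.31) and the scaffold protein Dlg5 (0.33), with a spread of 0.94. For Hey1 they were the adaptor Efs (0.54), the tubulin Tubb2b (0.55) and the asparaginase Asrgl1 (0.56), with a spread of 1.19, and all 3 were lowest in Erbb2 3, as Hey1 was.

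Another 60 genes of the pathway and its proneural targets, in 7 lists, held 0 that passed in any pairwise comparison, with the smallest limma adjusted p = 0.117. Of the 60, 54 lay above the dim limit on all 9 arrays. In the nuclear complex, the Mastermind coactivator Maml3 had levels of 6.15, 5.86 and 6.09 in NSC 1, 2 and 3, of 7.68, 6.32 and 7.75 in Erbb2 1, 2 and 3, and of 7.39, 8.31 and 8.61 in Hras 1, 2 and 3. Every tumour line lay above every NSC array, by 4.19-fold in the mean of Hras lines (log2 change 2.07, SE 0.43, limma adjusted p = 0.117) and 2.33-fold in that of Erbb2 lines (log2 change 1.22, SE 0.43, limma adjusted p = 0.445). Groups apart with the tumour lines higher were found for 11.9% of all genes in Hras lines against NSC, 5.09% in Erbb2 lines against NSC and 2.87% for all 6 tumour lines against NSC, and Maml3 is named for the smallest adjusted p of its list. The DNA-binding partner Rbpj was 9.08 to 9.43 in NSC and 9.60 to 10.71 in Hras lines (change 0.90, limma adjusted p = 0.344), with Erbb2 lines between 8.98 and 9.99. The coactivator Snw1 differed by 0.57 between Hras and Erbb2 lines (limma adjusted p = 0.393).

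Among the receptor proteases, Psen2, a catalytic subunit of gamma-secretase, had levels of 6.99, 7.24 and 6.78 in NSC 1, 2 and 3, of 9.26, 8.17 and 8.28 in Erbb2 1, 2 and 3, and of 8.56, 7.69 and 7.51 in Hras 1, 2 and 3. All 6 tumour lines lay above all 3 NSC arrays, as for 2.87% of all genes, with changes of 1.56 in Erbb2 lines (SE 0.37, limma adjusted p = 0.214) and 0.92 in Hras lines (SE 0.37, limma adjusted p = 0.369). All 10 genes of this list had a positive change in Erbb2 lines, where 63.3% of all genes had a negative one, with a median of 0.38 beside -0.14 over all genes. In Hras lines 3 of 10 had a negative change, where 31.5% of all genes did, with a median of 0.37 beside 0.16. The gamma-secretase subunit Psenen differed by -0.56 between Hras and Erbb2 lines (limma adjusted p = 0.391), and the receptor-cleaving protease Adam10 by 0.67 between Hras lines and NSC (limma adjusted p = 0.467).

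The glycosylation enzymes other than Lfng differed from NSC by at most 0.65. Pofut1, which adds the fucose that fringe enzymes extend, differed by 0.65 in Hras lines (limma adjusted p = 0.481), the fringe enzyme Mfng by 0.24 in Hras and -0.32 in Erbb2 lines, and Poglut1 by -0.075 and -0.13. The median of these 4 genes was 0.14 in Hras and -0.0045 in Erbb2 lines.

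Among other receptors and ligands, Dll4 was 5.86 to 6.46 in NSC, 5.52 to 5.63 in Erbb2 and 5.99 to 6.15 in Hras lines (Erbb2 against NSC, change -0.62, limma adjusted p = 0.413). Erbb2 lines lay apart from NSC and lower for 12.6% of all genes, and Hras and Erbb2 lines lay apart for 27.7%. The Erbb2 levels of Dll4 were near the dim limit of 5.31. Notch4 differed by 0.88 between Hras and Erbb2 lines (limma adjusted p = 0.391), Dlk2 by 0.31 (limma adjusted p = 0.486) and Jag2 by 0.23 (limma adjusted p = 0.718). The median gene differed by 0.29 in this comparison, so Dlk2 and Jag2 were near the general shift. Notch4 was at 5.96 to 6.06 in Erbb2 lines. Cntn1, a cell adhesion protein singled out after its values were seen, was 6.75 to 8.88 in NSC, 8.73 to 12.15 in Erbb2 and 4.79 to 12.40 in Hras lines (Erbb2 against NSC, change 3.18, SE 1.72, limma adjusted p = 0.57). Of the regulators of turnover, the ubiquitin ligase subunit Fbxw7, which targets the cleaved receptor, was 6.17 to 6.92 in NSC, 5.41 to 5.67 in Erbb2 and 6.15 to 6.70 in Hras lines (Erbb2 against NSC, change -0.92, limma adjusted p = 0.319). As for Dll4, the groups lay apart in a way shared by 12.6% of all genes, with Erbb2 levels near the dim limit. The Deltex genes Dtx4 and Dtx3 differed by -1.28 in Hras lines against NSC (limma adjusted p = 0.356) and by 0.96 in Erbb2 lines against NSC (limma adjusted p = 0.54).

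Of the other target genes, Hey2 spanned 4.65 to 8.48 over the 9 arrays. It reached 8.20 to 8.48 in Erbb2 1, Erbb2 2 and Hras 1, against 4.65 to 6.36 in the other 6, of which 3 lay below the dim limit. Its change was 1.46 in Erbb2 lines (SE 1.11, limma adjusted p = 0.629) and 0.82 in Hras lines (limma adjusted p = 0.845). Hes6, which opposes Hes1, differed by -0.87 in Hras and -0.86 in Erbb2 lines, Nrarp, a feedback inhibitor, by -0.073 and -0.60, Heyl by 0.26 and -0.32, and the radial glia lipid carrier Fabp7 by -0.73 and -0.31, with limma adjusted p between 0.326 and 0.96. Among the proneural and related factors, which several Hes proteins repress, Olig2 differed by -0.58 in Hras and -0.080 in Erbb2 lines against NSC, Atoh1 by 0.052 and -0.25, Neurog2 by 0.18 and -0.21, and Neurod4, which was below the dim limit in the mean of each group, by -0.096 and -0.45, with limma adjusted p between 0.567 and 0.954.

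**Figure D4:**
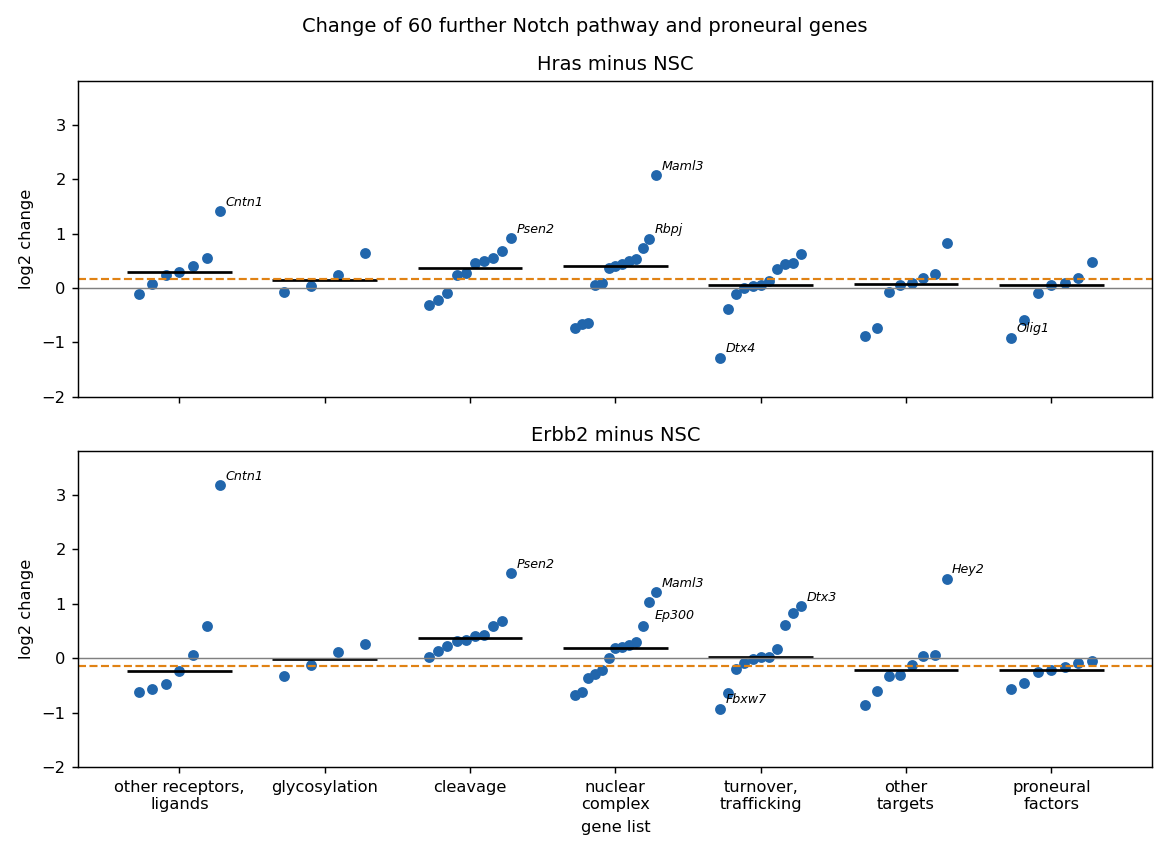
Log2 change (vertical axis) of 60 further Notch pathway and proneural genes by list, for Hras minus NSC (top) and Erbb2 minus NSC (bottom), with a point per gene, a bar at the list median, a dashed line at the median of all genes and names for changes over 0.9 in size. Maml3 and Psen2 lead the nuclear and cleavage lists in both panels, which share their NSC arrays.

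**Figure D5:**
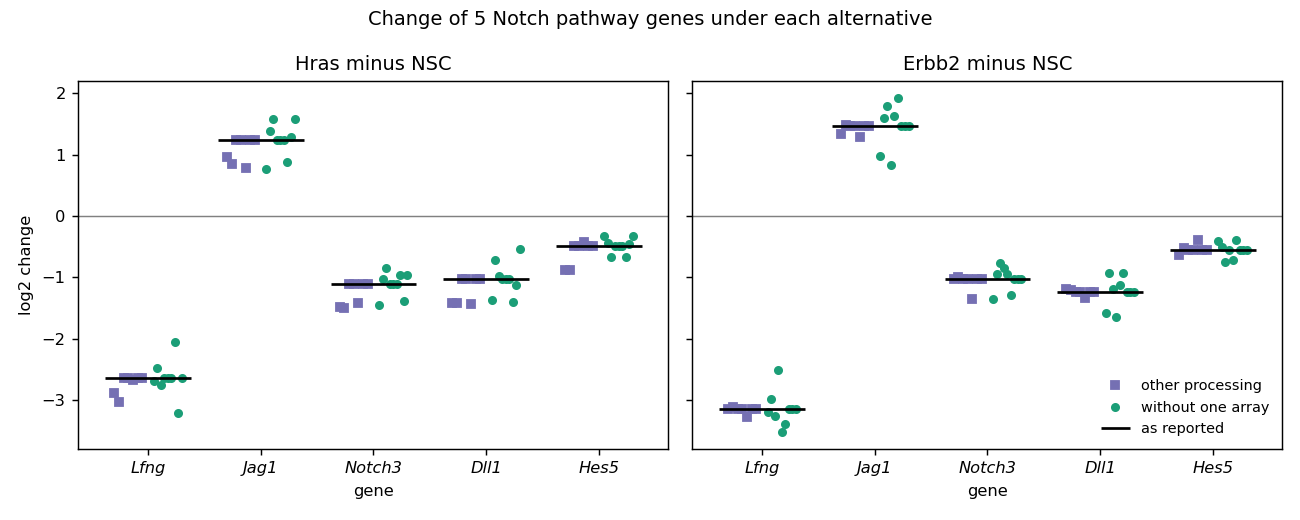
Log2 change of Lfng, Jag1, Notch3, Dll1 and Hes5 (vertical axis) for Hras minus NSC and Erbb2 minus NSC as reported (bar), under 7 other ways of processing (squares) and without each array in turn (circles). The 5 genes kept their direction throughout. Squares for the filter on dim genes, replicate block, intensity trend and fits of only the groups compared repeat the reported value. Circles without an array of the group not compared do so as well.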

How the data were processed

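Affymetrix Mouse Gene 1.0 ST arrays measured the RNA of 9 cultures, 3 per group by the titles. The authors deposited a table of log2 values per gene and a table of linear intensity values per probe set. How they corrected, scaled and summarised the probes is not given in the sources used here. All 10 member rows matched a single probe set of the intensity table after log2 transformation, within 0.0001 on every array, and the intensity table was used for that alone. Of 20715 rows, 25 with a number for a symbol were left out. The log2 values of 20690 genes were fitted with limma 3.58.1 in R 4.3.3 as group means over all 9 arrays (6 residual and 3.12 prior degrees of freedom), with Benjamini-Hochberg adjustment over all genes and a call at an adjusted p under 0.05. The steps were tested on simulated data. The 9 arrays limit the precision, and the signal over background was judged only by the dim limit of 5.31.

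Members and lists were chosen with earlier results of these data known. Named genes are the 10 members and, of each further list, the 3 with the smallest adjusted p over the pairwise comparisons, plus Dll4, Jag2, Notch4, Rbpj, Hes6, Hey2, Heyl, Nrarp, Neurog2 and Olig2. Cntn1, Aldh1l1, S100b, Pdgfra, Slc1a3, Pax6, Tubb3 and Snap25 were added after their values were seen. For members with an SD over 1, the 3 genes of most similar pattern were taken, passing over predicted genes and clones. Alternatives were quantile normalization, centring, a filter on dim genes, a replicate block, array weights, an intensity trend in the prior, fits of only the groups compared and removal of each array. Promoter windows came from RefSeq GRCm38.p6, and the motifs were fixed strings of letters. The build of the array annotation is not given in the sources used here. The description of Hras line 3 carries the number 4, and its title was followed. Some genes of the lists are not reported here, and list counts and means leave them out.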

Additional observations from a re-analysis of the deposited data

How the results depend on the processing

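Over 16 alternatives and 40 results (10 genes in 4 comparisons), 586 of 640 values kept their direction and their side of the threshold. Many of these values could not turn. The filter on dim genes, replicate block, intensity trend and fits of only the groups compared leave the change as it was and alter only its p-value. So does removal of an array outside the groups compared. The sign turned at least once for 19 of the 40 results, all with a change of at most 1.05 as reported. The alternative that averages all probe sets of a gene was not run, since no probe table was used here. With 3 arrays per group the smaller changes have intervals that include 0.

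Scaling turned these log2 changes. Quantile normalization gave Notch1 -0.18 and Hes1 -0.28 in Hras against NSC, and Dll1 -0.23 and Hes5 -0.25 in Hras against Erbb2. Centred arrays gave Notch1 -0.27 and Hes1 -0.37 in Hras against NSC, and Notch1 -0.026, Dll1 -0.21, Hes1 -0.19 and Hes5 -0.35 in Hras against Erbb2. Array weights gave Notch1 -0.46 in Hras against NSC, and Dll1 -0.092, Hes5 -0.031 and Hey1 -0.025 in Hras against Erbb2.

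Without single arrays the ranges of changes that turned were, in Hras against NSC, Notch1 -0.61 to 0.80, Notch2 -0.79 to 0.39, Dll3 -0.16 to 1.34 and Hes1 -0.15 to 0.21. In Erbb2 against NSC they were Notch1 -0.9999 to 0.41, Dll3 -0.66 to 0.24, Hes1 -0.54 to 0.049 and Hey1 -1.79 to 0.19. In Hras against Erbb2 they were Notch1 -0.26 to 1.07, Notch3 -0.36 to 0.18, Dll1 -0.16 to 0.70, Jag1 -0.68 to 0.42, Lfng -0.12 to 1.09, Hes1 -0.029 to 0.56, Hes5 -0.11 to 0.24 and Hey1 -0.76 to 1.22. With the tumour groups averaged against NSC they were Notch1 -0.80 to 0.60, Dll3 -0.23 to 0.66 and Hes1 -0.27 to 0.034. The causes were not tested.

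Counts over all genes were unstable. In Hras against NSC, 0 genes were called as reported, with 2481 at an unadjusted p under 0.05, against 2 after quantile normalization, 1 with centred arrays, 70 with array weights, 20 with only the groups compared and 0 to 76 without single arrays (76 without NSC 1, 18 without Erbb2 1, 11 without Erbb2 3, at most 3 without any other). In Erbb2 against NSC the 2 calls became 1 after quantile normalization, 8 without dim genes, 37 with array weights, 7 with an intensity trend, 8 with only the groups compared and 0 to 13 without single arrays (0 without NSC 1, NSC 2 or Erbb2 1, 1 without NSC 3, 5 without Erbb2 2, 13 without Erbb2 3, 8 and 10 without Hras 1 and Hras 3). With the tumour groups averaged the 73 calls became 12 after quantile normalization, 23 with centred arrays and 0 to 70 without single arrays (0 without NSC 2, 1 without Erbb2 1, 5 and 6 without Hras 2 and Hras 1, 20 and 21 without NSC 1 and NSC 3, 35 without Hras 3). Without dim genes all 10 members stayed in the fit.

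No label says that the title numbers pair the samples. Deviations from group means correlated at -0.34 to 0.44 over 9 same-numbered pairs, of which 4 were over 0.1. Of the 9 arrays, 4 correlated best with one of their own number. Erbb2 and Hras lines of the same number correlated at 0.34, -0.34 and 0.44 for numbers 1, 2 and 3. These lines also share the leading number of their deposited column names, and no NSC array shares one with a tumour line. What it stands for is not given, so anything it marks cannot be told apart from the difference between tumour lines and NSC. With the title number as a replicate block, 1 member, Lfng, was called in Erbb2 against NSC (limma adjusted p = 0.0464). It was also called with the tumour groups averaged (limma adjusted p = 0.0259). All genes called were then 9 in Hras against NSC, 27 in Erbb2 against NSC and 92 for the mean. Over all 16 alternatives the adjusted p of Lfng was 0.0731 to 0.454 in Hras against NSC, 0.0464 to 0.464 in Erbb2 against NSC and 0.0259 to 0.292 for the mean.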
